A study of Mus musculus with 18 samples.

Results

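Genes for mitosis and the B-type cyclins were followed in hearts of mice lacking Kcp and of wild-type mice after pressure overload. They were 36 genes of 34714 in the expression table, chosen by name from their roles in entry into and passage through cell division, and all 36 were found in the table. The choice was made with earlier results of these data known, so their shares beside those of all genes are descriptions only. Kcp encodes a secreted modulator of bone morphogenetic protein signalling, and the purpose given for the study was to learn how its loss alters remodelling of a pressure-loaded heart. Hearts came from C57 mice in 4 groups. KO TAC hearts (5 libraries) had Kcp knocked out and underwent transverse aortic constriction, a banding of the aorta that raises the load on the left ventricle. KO sham hearts (4 libraries) carried the same knockout and had a sham operation. WT TAC hearts (5 libraries) and WT sham hearts (4 libraries) were wild type with the same operations. Age, sex, the time after surgery and the make of the knockout (whole body or 1 cell type) are not stated in the sources used here, and no agent or second allele is named. Nor is it said that every library comes from its own mouse, and the p-values then speak only of the scatter between libraries.

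Cell division is driven by cyclin-dependent kinase 1 (CDK1) bound to cyclins A and B, which phosphorylates the proteins that condense chromosomes and build the spindle. The anaphase-promoting complex, a ubiquitin ligase, then marks cyclin B and securin for destruction, so that sister chromosomes part and the cell divides. Most of these genes are transcribed together late in the cycle, under the MuvB complex with B-Myb and FOXM1, and p53 acting through p21 (Cdkn1a) is known to lower them. Cardiomyocytes of an adult heart seldom divide, while fibroblasts, endothelial cells and macrophages can.

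Promoter letters are shown first because the late cell-cycle genes are known to share the CHR, the element through which MuvB binds, and CCAAT boxes, which bind NF-Y. RefSeq windows on GRCm38.p6 (250 bases before to 50 after the start) were held for 32 of the 36 genes, all but Ccna2, Aurkb, Tpx2 and Kif20a. The 6 stretches below are the 150 bases before the RefSeq start of genes on which the results turn, 5′ to 3′ on the gene's strand, with matches to TTTGAA (CHR) or CCAAT on either strand in capitals. Their positions are chr13:100786487-100786636 (minus strand) for Ccnb1, chr9:70421555-70421704 (minus) for Ccnb2, chr10:69352913-69353062 (minus) for Cdk1, chr2:164769779-164769928 (plus) for Ube2c, chr4:118437344-118437493 (minus) for Cdc20 and chr11:99024190-99024339 (minus) for Top2a.
Ccnb1: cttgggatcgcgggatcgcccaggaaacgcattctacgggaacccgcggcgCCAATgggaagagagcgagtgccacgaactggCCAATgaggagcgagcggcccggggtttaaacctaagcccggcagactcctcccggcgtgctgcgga
Ccnb2: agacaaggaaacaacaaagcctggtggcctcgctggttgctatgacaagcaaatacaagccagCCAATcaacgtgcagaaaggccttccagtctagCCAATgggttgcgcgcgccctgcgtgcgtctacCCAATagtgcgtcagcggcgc
Cdk1: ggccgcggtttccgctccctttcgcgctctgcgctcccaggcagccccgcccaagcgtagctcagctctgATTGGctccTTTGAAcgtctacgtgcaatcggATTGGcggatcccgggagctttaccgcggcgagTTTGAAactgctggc
Ube2c: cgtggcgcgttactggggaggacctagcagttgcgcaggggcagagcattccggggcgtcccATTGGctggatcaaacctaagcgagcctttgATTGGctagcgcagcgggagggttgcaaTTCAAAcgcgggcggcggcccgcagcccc
Cdc20: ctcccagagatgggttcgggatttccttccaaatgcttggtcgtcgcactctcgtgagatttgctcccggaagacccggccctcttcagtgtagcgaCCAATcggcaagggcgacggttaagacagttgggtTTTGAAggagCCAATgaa
Top2a: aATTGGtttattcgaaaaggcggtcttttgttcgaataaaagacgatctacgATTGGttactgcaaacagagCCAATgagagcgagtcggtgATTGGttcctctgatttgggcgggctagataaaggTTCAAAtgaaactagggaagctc

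Ccnb1 had 2 CCAAT boxes and no match to TTTGAA in its window, Ccnb2 had 3 CCAAT boxes and CHR matches outside the stretch shown, and Cdk1, Ube2c, Cdc20 and Top2a had CHR and CCAAT matches together in the stretch shown. Only TTTGAA and its reverse complement were searched for as the CHR, so other forms of the element are not covered. Of the 32 genes, 25 (78.1%) held TTTGAA or its reverse complement TTCAAA in the window, against 5466 of the 27025 genes of the promoter table (20.2%). CCAAT or its reverse complement ATTGG was in 28 of the 32 (87.5%), against 41.1% of all genes, and 2 or more such boxes were in 20 of 32 (62.5%), against 13.3%. Both motifs stood together in the same window for 24 of the 32 genes (75%), against 7.97% of all genes of the promoter table. The letters of the motifs differ, so that a match to one cannot be counted as a match to the other. The letters TTTGAA and TTCAAA were absent from the windows of Birc5, Bub1, Ccnb1, Cenpe, Mad2l1, Nek2 and Nusap1, and the CCAAT letters from those of Anln, Birc5, Mad2l1 and Nusap1. GENCODE places the starts of Ccnb1, Cdk1, Ube2c and Cdc20 inside the stretches shown. A match describes letters only, and binding was not measured in these hearts.

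**Figure D1:**
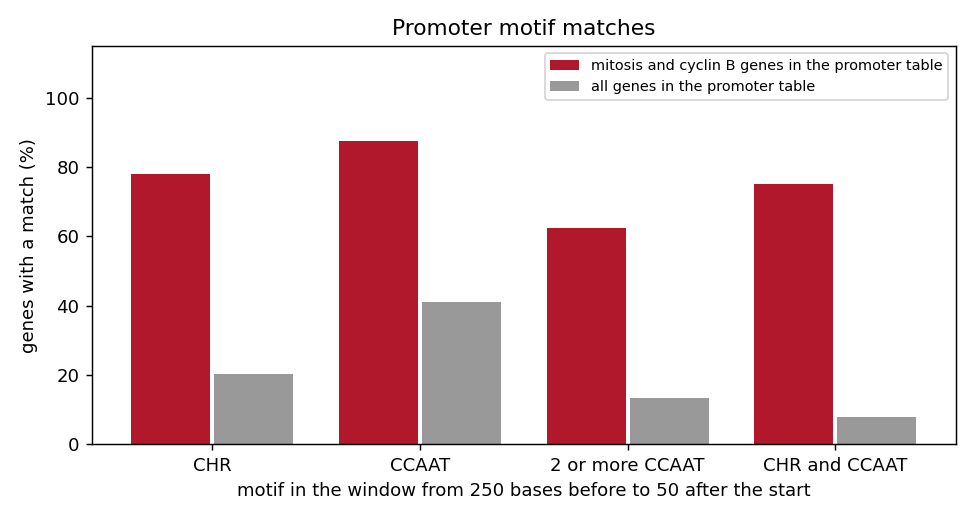
Share of genes (%, vertical axis) with a motif match in the promoter window, for the mitosis and cyclin B genes in the promoter table (red) and for all genes in it (grey). CHR and CCAAT stood together in the same window for 75% of the red set's genes and for 7.97% of all genes.

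The values were inferred to be FPKM, fragments scaled to transcript length and library total, so that levels of different genes can be set side by side per length. They summed to 390453 to 432264 per library, and as the depth of sequencing is unknown, neither counting intervals nor detection limits are given. The model used 17 libraries. It omitted KO sham replicate 2, named in the labels with the library codes of both KO sham replicates 3 and 4. The library name of KO TAC replicate 4 also joins 2 codes, neither of which names another library, and it was kept. Libraries also fell into 2 sets by 3 genes with near-identical copies (Ndufb4c, Rps27rt and Rps10), with WT TAC 1 to 4 and WT sham 1 to 4 in the first and WT TAC 5 with every KO library in the second, so genotype and set can hardly be told apart. Kcp itself stood at 0.952, 0.935, 0.791, 0.637 and 0.494 FPKM in KO TAC hearts and 0.666, 0.673 and 0.655 FPKM in KO sham hearts, against 0.985, 1.04, 1.48, 1.07 and 1.04 FPKM in WT TAC hearts and 0.794, 1.43, 0.888 and 1.02 FPKM in WT sham hearts. Its log2 difference between genotypes was -0.52 ± 0.18 (SE) after TAC and -0.54 ± 0.21 after sham, short of the threshold (limma, Benjamini-Hochberg adjusted p = 0.114 and 0.386), and which part of the gene was deleted is not given. Cardiomyocyte markers summed to 26000 to 28400 FPKM in KO TAC, 34300 to 38500 in KO sham, 26900 to 31400 in WT TAC and 34000 to 35900 in WT sham hearts, far above every other marker list, as the heart label has it.

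The mitotic genes were low in these hearts. The median of the 36 genes' mean levels was 1.35 FPKM in KO TAC hearts, 0.305 FPKM in KO sham hearts, 0.493 FPKM in WT TAC hearts and 0.387 FPKM in WT sham hearts. Means stayed under 1 FPKM for 12 of the 36 genes in KO TAC, 32 in KO sham, 33 in WT TAC and 32 in WT sham hearts. Cenpa, the gene for the centromeric histone H3 variant, had the highest level, with means between 16.9 and 23.4 FPKM in every group. No filter on low values was applied, and all 36 genes entered a limma model of log2(FPKM + 0.1) over 23775 genes, whose fold changes understate those of the lowest genes. A change was called at an adjusted p under 0.05. In a piece of heart, fewer cells of a type and less RNA per cell cannot be told apart.

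After TAC in Kcp-knockout hearts, genes of every stage of mitosis were higher than after sham. Of the 36, 26 rose and 1 (Cenpf) fell in KO TAC against KO sham hearts, where 11.2% of all tested genes rose and 9.30% fell. Their median log2 difference was 1.61, against 0.01 over all tested genes, and 35 of the 36 differences were above 0. In 28 genes every KO TAC library stood above every KO sham library, which held for 12.0% of all tested genes. The rise was called for 5 of 6 cyclin and CDK1 genes, 4 of 7 mitotic kinases, 3 of 5 genes of the anaphase ubiquitin system and checkpoint, 4 of 7 chromosome and centromere genes, 7 of 7 spindle genes and 3 of 4 cytokinesis genes. KO sham replicate 2, outside the model, had a summed level of 12.9 FPKM over the 34 genes other than Cenpa and Cenpf, beside 12.3, 14.3 and 12.1 FPKM in KO sham replicates 1, 3 and 4.

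**Figure D2:**
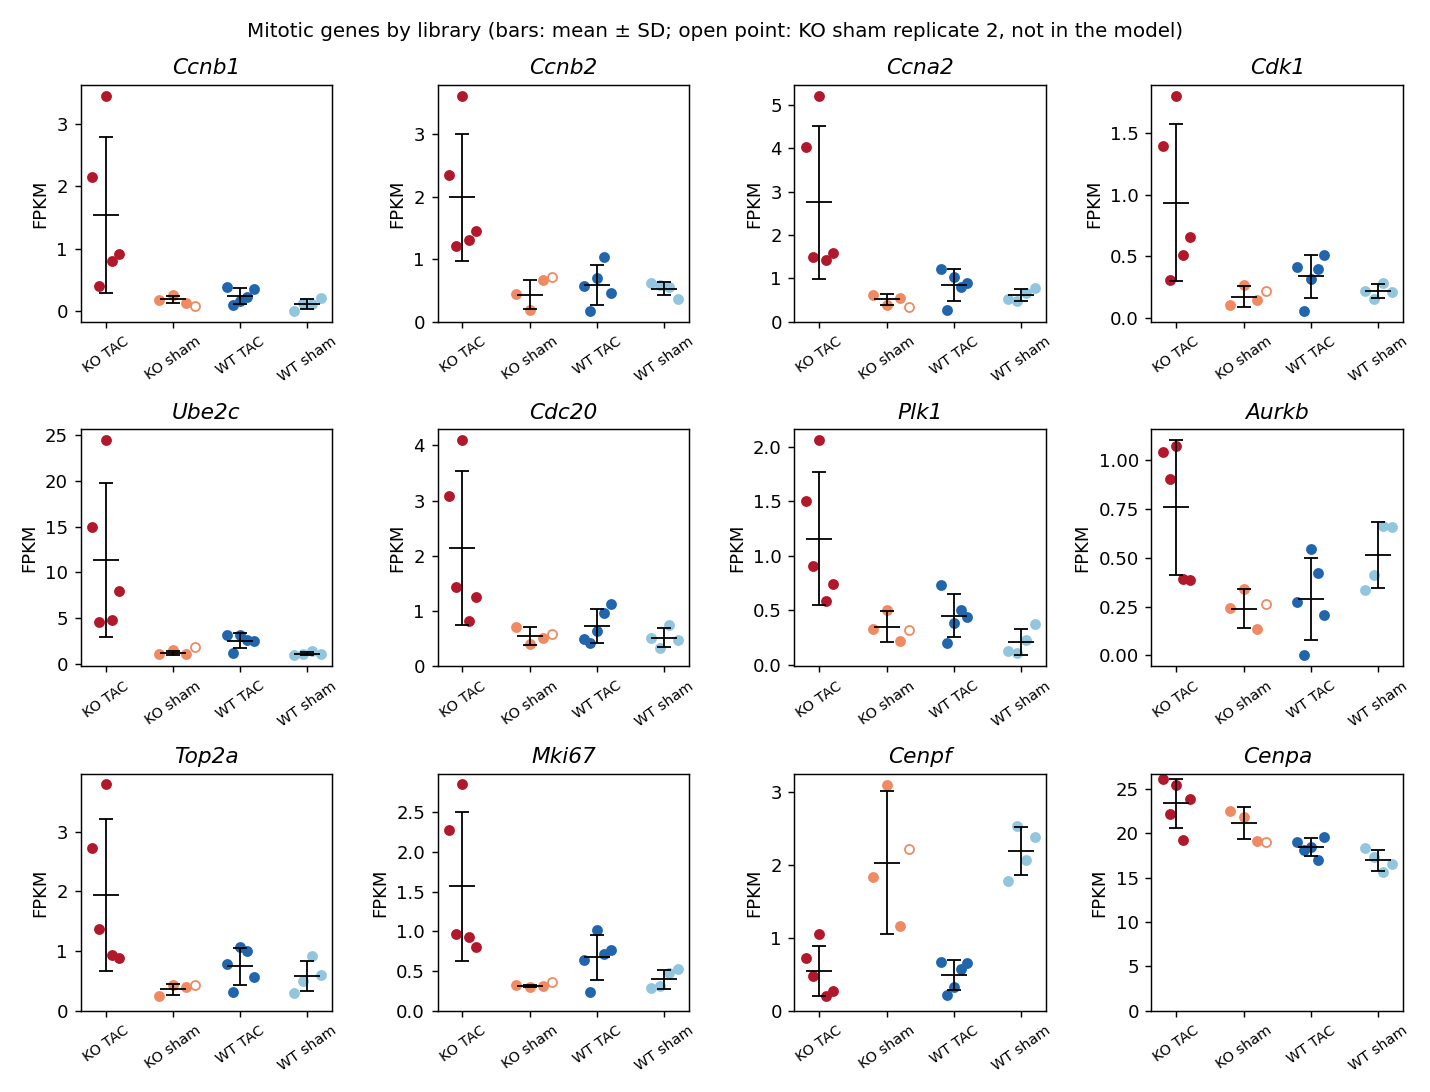
Levels (FPKM, vertical axis) of 12 genes in each library of the 4 groups, with the mean and SD as black bars and KO sham replicate 2 as an open point. KO TAC libraries lie above the KO sham libraries for 10 of the panels, and Cenpf lies lower in both TAC groups. For Cenpa, TAC and sham overlap within each genotype, while KO sham lies above WT sham.

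Among the cyclins, values are given below in replicate order (1 to 5 for TAC hearts, 1, 3 and 4 for KO sham and 1 to 4 for WT sham). Ccnb1, encoding cyclin B1, the main activating partner of CDK1 in mitosis (chr13:100778650-100786570, minus strand, GENCODE on GRCm38), had 2.14, 0.396, 3.45, 0.803 and 0.914 FPKM in KO TAC hearts, against 0.182, 0.248 and 0.124 FPKM in KO sham hearts. Every KO TAC heart stood above every KO sham heart, with replicates 3 and 1 highest and replicate 2 nearest to sham. The means were 1.54 ± 1.25 FPKM (SD, n = 5) and 0.184 ± 0.0622 FPKM (SD, n = 3), a ratio of 8.37, and the log2 change was 2.21 ± 0.52 (limma adjusted p = 0.00556). An exact permutation test of Ccnb1 alone gave a 2-sided p of 0.054 over 56 regroupings, the smallest it allows being 0.018. As the groups did not overlap, no regrouping gives a larger rise with TAC, and the 0.018 belongs to one in the other direction. For a rise, 0.054 was thus the smallest p these values allow. Across the alternatives run, this exact permutation p ranged from 0.016 with KO sham replicate 2 included, through 0.029 to 0.095 with 1 library left out (0.029 without KO TAC replicate 2), to 0.12 on the FPKM scale. Ccnb2, encoding cyclin B2, had 2.35, 1.22, 3.62, 1.31 and 1.46 FPKM in KO TAC hearts, against 0.445, 0.193 and 0.665 FPKM in KO sham hearts. Ccnb2 did not overlap between the groups and rose by 1.96 ± 0.42 (adjusted p = 0.00288).

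Ccna2, encoding cyclin A2, which acts from S phase to early mitosis, had 4.02, 1.5, 5.21, 1.43 and 1.59 FPKM in KO TAC hearts, against 0.615, 0.379 and 0.555 FPKM in KO sham hearts. The catalytic partner Cdk1 had 1.39, 0.307, 1.8, 0.514 and 0.659 FPKM in KO TAC hearts, against 0.107, 0.269 and 0.146 FPKM in KO sham hearts. Neither gene overlapped between the groups, although Cdk1 in KO TAC replicate 2 stood just above the highest sham heart. Ccna2 rose by 2.02 ± 0.43 (adjusted p = 0.00264) and Cdk1 by 1.73 ± 0.47 (adjusted p = 0.0137), the Cdk1 call being lost without KO sham replicate 1 (log2 change 1.55, adjusted p = 0.0653). Cdkn3, a phosphatase that removes the activating phosphate from cyclin-dependent kinases, had 1.85, 0.838, 3.07, 1.22 and 1.4 FPKM in KO TAC hearts, against 0.184, 0.379 and 0.33 FPKM in KO sham hearts. The lowest KO TAC value of Cdkn3 was above the highest sham value, and the gene rose by 2.07 ± 0.33 (adjusted p = 0.000251). Ccnf, encoding cyclin F, a substrate receptor of an SCF ubiquitin ligase, had a log2 change of 0.89 ± 0.37 (adjusted p = 0.11).

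Of the mitotic kinases, 4 rose and 3 were short of the threshold. Plk1, a polo-like kinase of centrosomes and kinetochores, had 1.5, 0.901, 2.06, 0.583 and 0.743 FPKM in KO TAC hearts, against 0.331, 0.499 and 0.215 FPKM in KO sham hearts. Aurka, the centrosomal Aurora kinase, had 2.64, 0.721, 3.75, 0.781 and 0.985 FPKM in KO TAC hearts, against 0.612, 0.618 and 0.43 FPKM in KO sham hearts. Plk1 rose by 1.40 ± 0.39 (adjusted p = 0.0172), a call lost without KO sham replicate 1 or 4 (log2 changes 1.40 and 1.17, adjusted p = 0.052 and 0.0887), and Aurka missed the threshold at 1.24 ± 0.43 (adjusted p = 0.0519), although neither overlapped between the groups. Aurkb, the kinase of the chromosomal passenger complex, had 1.04, 0.904, 1.07, 0.39 and 0.384 FPKM in KO TAC hearts, against 0.242, 0.339 and 0.137 FPKM in KO sham hearts. Its groups did not overlap either, and its change of 1.27 ± 0.49 did not pass (adjusted p = 0.0809). Ttk, a kinase of the spindle checkpoint, rose by 1.59 ± 0.32 (adjusted p = 0.00192) and was listed at 0 in KO sham replicates 1 and 4. Bub1b, a checkpoint pseudokinase that holds the anaphase-promoting complex in check, rose by 1.41 ± 0.29 (adjusted p = 0.00199). Nek2, a kinase of centrosome separation, rose by 1.33 ± 0.44 (adjusted p = 0.0421), but its call was lost without any of KO TAC 1, KO TAC 3, the 3 KO sham libraries or WT sham 1, with log2 changes of 1.01 to 1.49. Bub1, a kinetochore kinase of the same checkpoint, had a change of 1.12 ± 0.41 (adjusted p = 0.0661).

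In the anaphase ubiquitin system, Ube2c stood out in size. It encodes the ubiquitin-conjugating enzyme of the anaphase-promoting complex (chr2:164769898-164778822, plus strand), and had 14.9, 4.6, 24.4, 4.86 and 7.96 FPKM in KO TAC hearts, against 1.1, 1.54 and 1.18 FPKM in KO sham hearts. All 5 KO TAC hearts lay above the sham hearts, with means of 11.3 ± 8.4 FPKM (SD, n = 5) and 1.27 ± 0.235 FPKM (SD, n = 3) and a log2 change of 2.77 ± 0.43 (adjusted p = 2e-04). Cdc20, the activator that brings substrates to the complex, had 3.09, 1.44, 4.1, 0.811 and 1.25 FPKM in KO TAC hearts, against 0.718, 0.404 and 0.503 FPKM in KO sham hearts. Its groups did not overlap, and it rose by 1.60 ± 0.42 (adjusted p = 0.0116), a call lost without KO sham replicate 3 (log2 change 1.44, adjusted p = 0.0593). Cdca3, linked to the destruction of the mitotic inhibitor WEE1, had 3.77, 1.23, 6.65, 1.55 and 1.63 FPKM in KO TAC hearts, against 0.462, 1.08 and 0.709 FPKM in KO sham hearts. KO TAC replicate 2 and KO sham replicate 3 came close to each other, and the rise of 1.63 ± 0.52 (adjusted p = 0.0342) was lost without KO TAC 1, KO TAC 3, KO sham 1 or KO sham 4 (log2 changes 1.47, 1.27, 1.36 and 1.62). Mad2l1, the checkpoint protein that restrains Cdc20, and Espl1, the separase that cuts cohesin, had changes of 0.73 ± 0.26 and 0.69 ± 0.24, short of the threshold (adjusted p = 0.054 and 0.0508).

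Of the chromosome genes, Top2a, which untangles DNA before chromosomes part, had 2.72, 1.37, 3.79, 0.939 and 0.882 FPKM in KO TAC hearts, against 0.253, 0.425 and 0.394 FPKM in KO sham hearts. Mki67, the coat protein of mitotic chromosomes and a marker of cycling cells, had 2.27, 0.971, 2.85, 0.932 and 0.803 FPKM in KO TAC hearts, against 0.329, 0.293 and 0.311 FPKM in KO sham hearts. Both were higher in each KO TAC heart than in any KO sham heart, by 1.96 ± 0.44 for Top2a (adjusted p = 0.00423) and 1.84 ± 0.40 for Mki67 (adjusted p = 0.00291). Birc5, encoding survivin of the chromosomal passenger complex, had 3.5, 0.96, 4.49, 1 and 0.935 FPKM in KO TAC hearts, against 0.278, 0.622 and 0.178 FPKM in KO sham hearts. Its groups did not overlap, and the rise of 2.10 ± 0.66 (adjusted p = 0.0326) was lost without KO TAC 1, KO TAC 3, KO sham 1 or KO sham 4 (log2 changes 1.86, 1.77, 2.02 and 1.80). Cdca8, encoding borealin of the same complex, had a change of 1.39 ± 0.54 (adjusted p = 0.0829). Cenpe, a kinetochore motor, rose by 0.89 ± 0.27 (adjusted p = 0.0286), a call lost without KO TAC 1, KO TAC 3, KO sham 1 or KO sham 3 (log2 changes 0.80, 0.80, 0.96 and 0.74).

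Cenpf ran against the rest. It encodes a large kinetochore and nuclear-envelope protein (chr1:189640606-189688086, minus strand) and had 0.723, 0.479, 1.05, 0.203 and 0.266 FPKM in KO TAC hearts, against 1.83, 3.1 and 1.16 FPKM in KO sham hearts. Every KO TAC heart was below every KO sham heart, and Cenpf fell by 1.80 ± 0.41 on the log2 scale (SE; adjusted p = 0.00439). In wild-type hearts it had 0.671, 0.22, 0.323, 0.574 and 0.658 FPKM in WT TAC hearts, against 1.78, 2.53, 2.07 and 2.38 FPKM in WT sham hearts. There too the groups did not overlap, and the log2 change was -2.03 ± 0.38 (adjusted p = 0.00255). The difference between the responses of the 2 genotypes was 0.23 ± 0.56 log2 units. Within KO TAC hearts Cenpf was still highest in replicates 3 and 1, the libraries that were highest for most of the other genes. Its promoter window held a CHR match just after the start and 2 CCAAT boxes.

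Cenpa did not pass the threshold with TAC. At 26.1, 22.2, 25.5, 19.2 and 23.9 FPKM in KO TAC hearts, against 22.5, 21.8 and 19.1 FPKM in KO sham hearts, it had by far the highest level of the 36 genes in the sham hearts, and its change with TAC was 0.14 ± 0.09 (adjusted p = 0.325) in knockouts and 0.12 ± 0.08 in wild types.

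All 7 spindle genes rose in KO TAC hearts. Kif4, a chromokinesin of the anaphase midzone, had 1.1, 0.357, 1.28, 0.372 and 0.361 FPKM in KO TAC hearts, against 0.0334, 0.109 and 0.0466 FPKM in KO sham hearts. Tpx2, which activates Aurora A at spindle microtubules, had 1.76, 1.17, 2.26, 1.01 and 0.871 FPKM in KO TAC hearts, against 0.339, 0.241 and 0.268 FPKM in KO sham hearts. Nusap1, a microtubule-bundling protein, had 2.08, 1.05, 2.18, 0.933 and 0.619 FPKM in KO TAC hearts, against 0.376, 0.319 and 0.295 FPKM in KO sham hearts. In each of these 3 genes the lowest KO TAC heart was above the highest KO sham heart, and the rises were 2.13 ± 0.37 for Kif4 (adjusted p = 0.000478), 1.91 ± 0.39 for Tpx2 (adjusted p = 0.00179) and 1.64 ± 0.37 for Nusap1 (adjusted p = 0.00378). Kif11, the motor that pushes spindle poles apart, rose by 1.63 ± 0.31 (adjusted p = 0.000967), and Hmmr, a spindle protein also known as a hyaluronan receptor, by 2.04 ± 0.50 (adjusted p = 0.00667). Kif20a, a midzone motor, rose by 1.68 ± 0.38 (adjusted p = 0.00408). Prc1, which crosslinks midzone microtubules, rose by 1.53 ± 0.42 (adjusted p = 0.0153), a call lost without KO sham 3 or KO sham 4 (log2 changes 1.45 and 1.38).

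Of the cytokinesis genes, Anln, encoding anillin, a scaffold of the contractile ring, had 1.67, 0.745, 2.25, 0.847 and 0.815 FPKM in KO TAC hearts, against 0.267, 0.241 and 0.249 FPKM in KO sham hearts. Racgap1, a subunit of the centralspindlin complex, had 2.94, 1.26, 3.95, 1.63 and 1.28 FPKM in KO TAC hearts, against 0.708, 0.42 and 0.655 FPKM in KO sham hearts. Neither overlapped between the groups, and Anln rose by 1.83 ± 0.38 (adjusted p = 0.00235) and Racgap1 by 1.62 ± 0.34 (adjusted p = 0.00258). Kif23, the motor of centralspindlin, rose by 1.0 ± 0.33 (adjusted p = 0.0408), a call lost without KO TAC 2, KO TAC 3, KO sham 1, KO sham 3 or WT sham 2 (log2 changes 0.96, 0.76, 0.86, 0.95 and 1.0). Ect2, which centralspindlin recruits to the midzone, had a change of 0.68 ± 0.34 (adjusted p = 0.183). Without both KO TAC 1 and KO TAC 3, a pair left out after their values were seen, 17 of the 36 genes rose and Cenpf fell, and the calls of Cdk1, Plk1, Nek2, Cdc20, Cdca3, Cenpe, Birc5, Prc1 and Kif23 were lost.

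**Figure D3:**
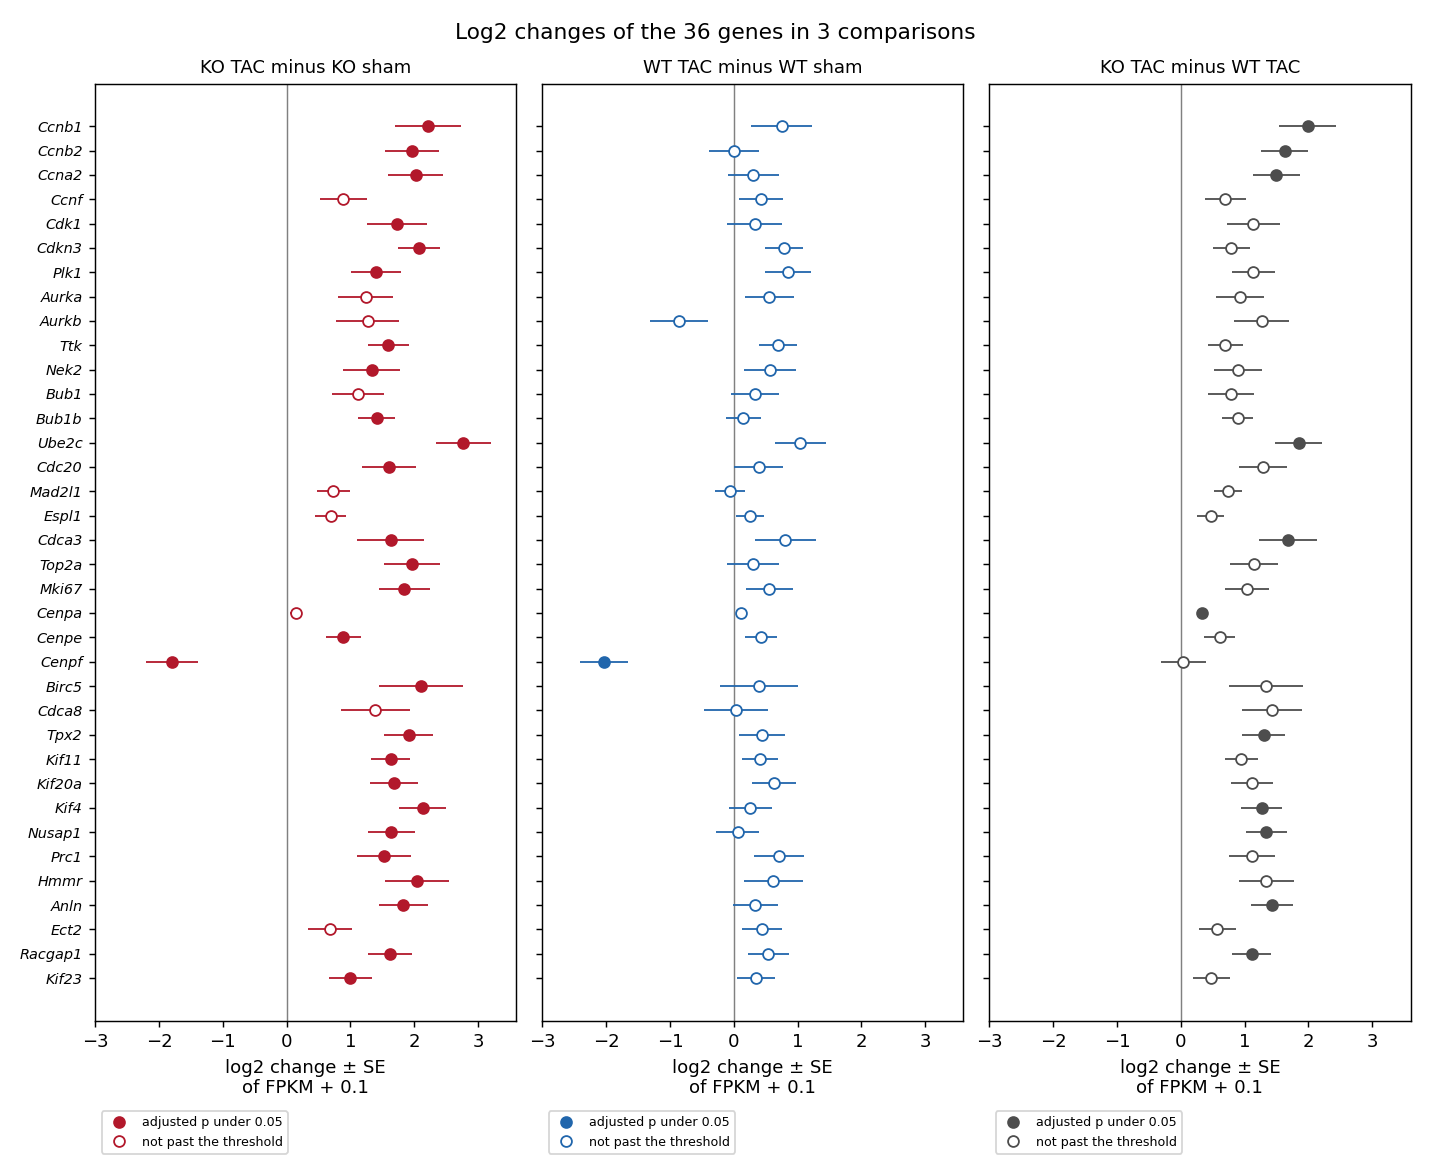
Log2 change ± SE of FPKM + 0.1 (horizontal axis) for the 36 genes in 3 comparisons, filled where the adjusted p was under 0.05. Filled points to the right of 0 number 26 for KO TAC against KO sham, 0 for WT TAC against WT sham and 11 for KO TAC against WT TAC, and Cenpf is the filled point to the left of 0 in both TAC comparisons.

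After TAC in wild-type hearts none of the 36 genes rose past the threshold. In WT TAC against WT sham hearts 4.67% of all tested genes rose, and Cenpf alone of the 36 fell, where 4.80% of all tested genes did. Before adjustment 4 of the 36 (Cdkn3, Plk1, Ttk and Ube2c) were higher at p under 0.05, against 10.3% of all tested genes. Differences were above 0 for 32 of the 36, with a median of 0.40 log2 units against 0.00 over all tested genes. None of the 36 was higher without overlap, against 5.86% of all tested genes. WT TAC replicate 2 was the lowest of its group for 32 of the 36 genes, and without it 15 were higher without overlap, against 7.41% of all tested genes. That library was singled out after its values in these same genes were seen, and leaving out the lowest library favours a higher count. The 15 is therefore not read as a result about the 36 genes.

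Ccnb1 had 0.391, 0.0943, 0.163, 0.22 and 0.357 FPKM in WT TAC hearts, against 0, 0.124, 0.109 and 0.2 FPKM in WT sham hearts. The WT groups overlapped, with WT sham replicate 1 listed at 0, and the change was 0.75 ± 0.48 (limma adjusted p = 0.406; exact permutation p = 0.12, smallest possible 0.0079). Ube2c had 3.23, 1.27, 3.23, 2.7 and 2.53 FPKM in WT TAC hearts, against 0.969, 1.12, 1.42 and 1.13 FPKM in WT sham hearts. Only WT TAC replicate 2 lay within the sham range of Ube2c, and the change of 1.04 ± 0.40 (adjusted p = 0.123) passed in a model of the WT groups alone (adjusted p = 0.0217) or without KO TAC replicate 3 (adjusted p = 0.048). Ccnb2 had 0.571, 0.173, 0.703, 1.03 and 0.461 FPKM in WT TAC hearts, against 0.618, 0.587, 0.549 and 0.371 FPKM in WT sham hearts. Ccna2 had 1.22, 0.269, 1.04, 0.793 and 0.9 FPKM in WT TAC hearts, against 0.514, 0.482, 0.672 and 0.779 FPKM in WT sham hearts. Cdk1 had 0.414, 0.0584, 0.314, 0.395 and 0.508 FPKM in WT TAC hearts, against 0.223, 0.158, 0.288 and 0.212 FPKM in WT sham hearts. In these 3 genes the TAC values spread to both sides of the sham values, with WT TAC replicate 2 lowest, and the changes of Ccna2 and Cdk1 were 0.31 ± 0.40 and 0.33 ± 0.43.

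Cdkn3 had 1.25, 0.764, 1.11, 0.534 and 0.737 FPKM in WT TAC hearts, against 0.421, 0.364, 0.4 and 0.627 FPKM in WT sham hearts. Its change was 0.79 ± 0.30 (adjusted p = 0.123), with 1 TAC heart inside the sham range. Plk1 had 0.735, 0.198, 0.378, 0.499 and 0.44 FPKM in WT TAC hearts, against 0.126, 0.103, 0.225 and 0.374 FPKM in WT sham hearts. Its change was 0.85 ± 0.36 (adjusted p = 0.176), again with overlap. Aurka had 0.876, 0.367, 0.882, 0.77 and 0.759 FPKM in WT TAC hearts, against 0.328, 0.403, 0.608 and 0.483 FPKM in WT sham hearts. Replicate 2 lay inside the sham range of Aurka, and the other 4 TAC hearts above it. Aurkb had 0.275, 0, 0.547, 0.422 and 0.208 FPKM in WT TAC hearts, against 0.334, 0.41, 0.662 and 0.656 FPKM in WT sham hearts. Aurkb was the gene with the lowest WT response apart from Cenpf, at -0.86 ± 0.45 (adjusted p = 0.293), with 1 TAC heart listed at 0. Cdc20 had 0.487, 0.416, 0.63, 0.969 and 1.12 FPKM in WT TAC hearts, against 0.51, 0.328, 0.74 and 0.474 FPKM in WT sham hearts. Birc5 had 1.11, 0.0671, 0.786, 1.36 and 0.655 FPKM in WT TAC hearts, against 0.163, 0.548, 0.68 and 0.594 FPKM in WT sham hearts. Both overlapped between TAC and sham, with changes of 0.39 log2 units each.

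Top2a had 0.777, 0.307, 1.06, 0.993 and 0.571 FPKM in WT TAC hearts, against 0.302, 0.497, 0.91 and 0.596 FPKM in WT sham hearts. Mki67 had 0.636, 0.235, 1.01, 0.714 and 0.762 FPKM in WT TAC hearts, against 0.282, 0.308, 0.474 and 0.527 FPKM in WT sham hearts. These overlapped as well, at changes of 0.30 and 0.56. Anln had 0.36, 0.156, 0.575, 0.648 and 0.265 FPKM in WT TAC hearts, against 0.148, 0.211, 0.362 and 0.413 FPKM in WT sham hearts. Cdca3 had 1.29, 0.238, 0.638, 1.06 and 0.636 FPKM in WT TAC hearts, against 0.247, 0.243, 0.699 and 0.315 FPKM in WT sham hearts. Kif4 had 0.22, 0.0871, 0.292, 0.239 and 0.152 FPKM in WT TAC hearts, against 0.137, 0.144, 0.147 and 0.135 FPKM in WT sham hearts. WT TAC replicate 2 was lowest of all WT hearts in Cdca3 and Kif4, and next to lowest in Anln. Nusap1 had 0.398, 0.162, 0.656, 0.544 and 0.541 FPKM in WT TAC hearts, against 0.325, 0.361, 0.435 and 0.527 FPKM in WT sham hearts. Racgap1 had 0.803, 0.467, 1.28, 1.22 and 0.828 FPKM in WT TAC hearts, against 0.556, 0.603, 0.515 and 0.607 FPKM in WT sham hearts. Tpx2 had 0.484, 0.117, 0.788, 0.814 and 0.537 FPKM in WT TAC hearts, against 0.418, 0.264, 0.36 and 0.27 FPKM in WT sham hearts. In all 3 the range of the TAC hearts enclosed that of the sham hearts. Cenpa had 19, 18.1, 18.5, 17 and 19.6 FPKM in WT TAC hearts, against 18.4, 17.3, 15.6 and 16.5 FPKM in WT sham hearts. The WT groups of Cenpa overlapped, and every WT value was under the KO TAC median of 23.9 FPKM.

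**Figure D4:**
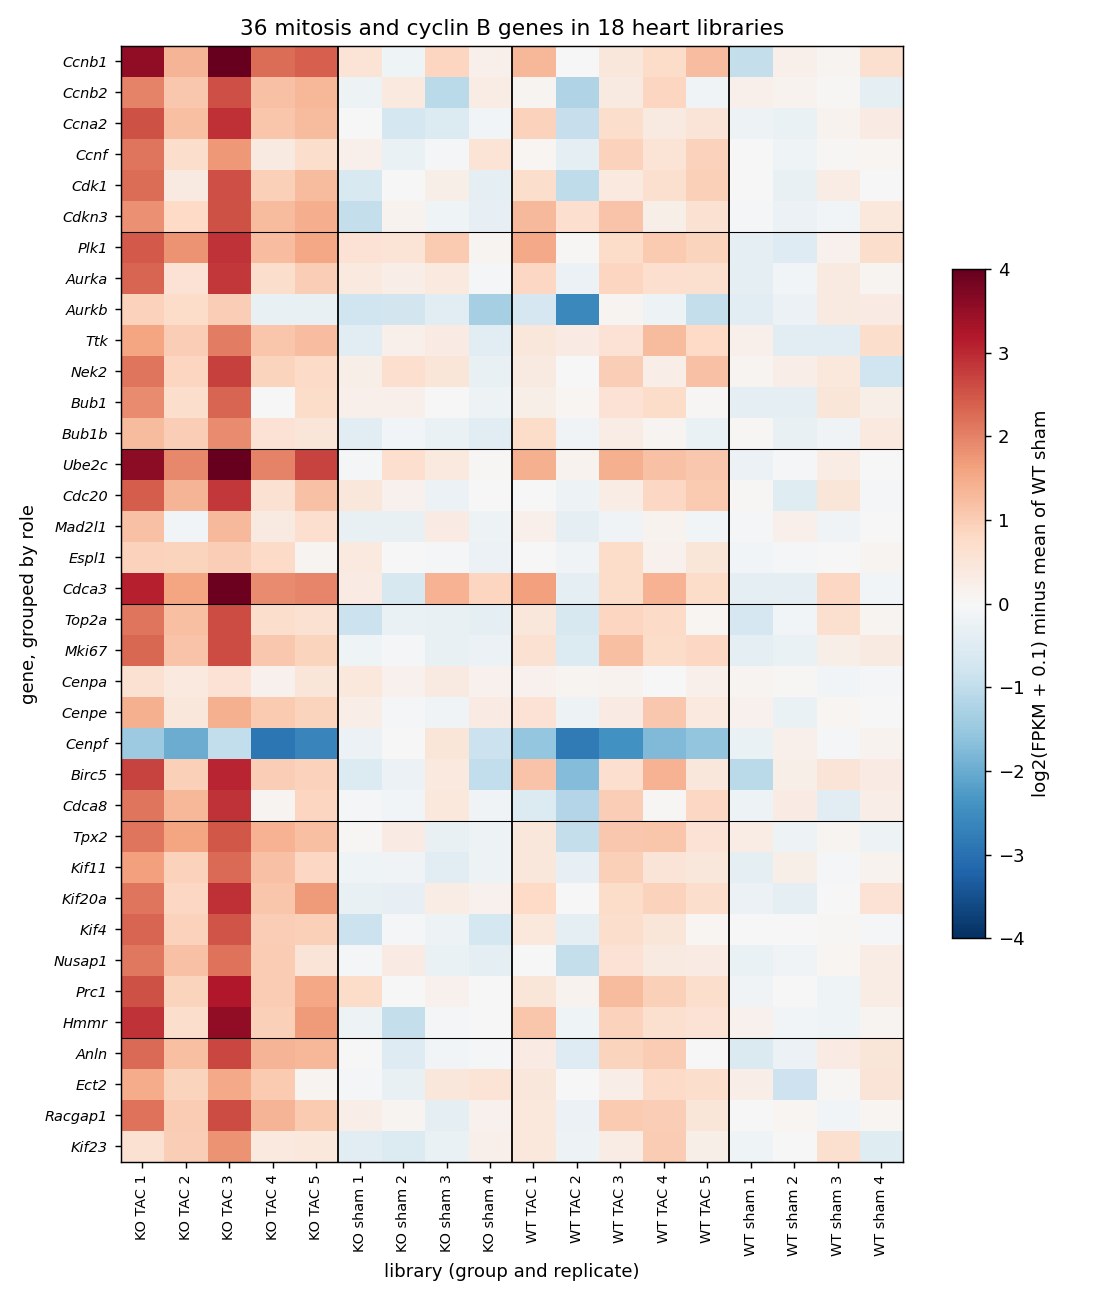
Log2(FPKM + 0.1) of the 36 genes (rows) in all 18 libraries (columns), as the difference from the mean of the WT sham libraries. KO TAC 3 and KO TAC 1 form the reddest columns, KO TAC 2, 4 and 5 are paler, and Cenpf is blue in both TAC groups.

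The difference between the TAC responses of the genotypes was tested as an interaction. It was above 0 for 36 of the 36 genes, with a median of 1.22 log2 units against 0.03 over all tested genes. None passed the adjusted threshold, which 0.0210% of all tested genes passed upward, and 17 of the 36 had an unadjusted p under 0.05, against 7.16% of all tested genes upward. The smallest adjusted p was that of Kif4, whose response was 1.86 ± 0.50 log2 units higher in knockouts (limma adjusted p = 0.129). Ccnb2 followed at 1.96 ± 0.57 (limma adjusted p = 0.153). Aurkb had the largest difference, 2.13 ± 0.67 (limma adjusted p = 0.178), its mean being higher after TAC in knockouts and lower after TAC in wild types, neither past the threshold. A lower Aurkb level in KO sham than WT sham hearts, -0.86 ± 0.51 (limma adjusted p = 0.609), enters this difference. Between KO TAC and WT TAC hearts Aurkb differed by 1.27 ± 0.43 (limma adjusted p = 0.108). Ccnb1 differed by 1.46 ± 0.71 (limma adjusted p = 0.408).

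Set against WT TAC hearts directly, KO TAC hearts had higher levels of 11 of the 36 genes and lower levels of none, where 2.28% of all tested genes were higher. At an unadjusted p under 0.05, 33 of the 36 were higher, against 10.5% of all tested genes, and the median difference was 1.11 log2 units against 0.01. The 11 were Ccnb1, Ccnb2, Ccna2, Ube2c, Cdca3, Cenpa, Kif4, Nusap1, Tpx2, Anln and Racgap1. No mitotic kinase was among them, although 7 of 7 were higher at an unadjusted p under 0.05 (limma), with a median of 0.9 log2 units. Ccnb1 was 1.99 ± 0.45 log2 units higher (adjusted p = 0.0215), with means of 1.54 ± 1.25 FPKM in KO TAC and 0.245 ± 0.126 FPKM in WT TAC hearts (SD, n = 5 each), and an exact permutation p of 0.0079, the smallest its 252 regroupings allow. Ube2c was 1.85 ± 0.37 higher (adjusted p = 0.0118), at 11.3 ± 8.4 FPKM in KO TAC and 2.59 ± 0.804 FPKM in WT TAC hearts. Ccnb2 was higher by 1.63 ± 0.37 (adjusted p = 0.0201), Ccna2 by 1.5 ± 0.37 (adjusted p = 0.0328) and Cdca3 by 1.68 ± 0.45 (adjusted p = 0.0457). The spindle and cytokinesis genes among the 11 were 1.11 to 1.43 higher, from Racgap1 (adjusted p = 0.0468) to Anln (adjusted p = 0.0246).

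The KO TAC and WT TAC libraries did not overlap for 7 genes (Anln, Ccna2, Ccnb1, Ccnb2, Kif4, Tpx2 and Ube2c), all higher in knockouts, where 2.44% of all tested genes were higher without overlap. The 11 calls depended on the model, with 0 in each of 3 alternatives. In a model of the KO TAC and WT TAC libraries alone the differences were the same and the adjusted p-values were 0.0594 to 0.121 (limma). With a term for the library sets the differences ranged from 0.24 for Cenpa to 1.82 for Ube2c, with Ccnb1 at 1.5 and Ccnb2 at 1.78. Without both KO TAC 1 and KO TAC 3 they were smaller, from 0.23 for Cenpa to 1.24 for Ccnb1. The count of calls was 1 without KO TAC 1, 2 without KO TAC 3, 2 without WT TAC 2, 6 without WT TAC 4, 5 without WT TAC 5 and 19 without KO TAC 2. Ube2c was the call that held when any 1 library was left out. WT TAC 5, the only wild-type heart in the same library set as the knockouts, was below every KO TAC heart for 25 of the 36 genes, Ccnb1, Ccnb2, Ccna2 and Ube2c among them, and for 16.5% of all tested genes. With 1 such heart, the parts of set and genotype cannot be told apart.

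In sham hearts no gene of the 36 differed between genotypes past the threshold, which 0.269% of all tested genes passed upward. At an unadjusted p under 0.05, 1 of the 36 was higher in KO sham hearts (Cenpa), against 5.13% of all tested genes, and none was lower. Differences were above 0 for 16 of the 36, with a median of -0.06. Cenpa was higher without overlap in KO sham hearts, as 4.61% of all tested genes were, by 0.32 ± 0.09 (limma adjusted p = 0.184), with means of 21.1 ± 1.77 FPKM in KO sham (SD, n = 3) and 16.9 ± 1.2 FPKM in WT sham hearts (SD, n = 4). Its difference between KO TAC and WT TAC hearts was of the same size, 0.33 ± 0.08 (adjusted p = 0.0247), so for Cenpa the interaction was 0.02 log2 units. Kif4 was lower without overlap in KO sham hearts, as 5.09% of all tested genes were, at 0.0334, 0.109 and 0.0466 FPKM in KO sham and 0.137, 0.144, 0.147 and 0.135 FPKM in WT sham hearts. The log2 difference of Kif4, -0.59 ± 0.38 (limma adjusted p = 0.663), enters its interaction above. The genotype difference of Cenpa runs along the library sets, and set and genotype cannot be told apart in the sham hearts, where the sets hold 1 genotype each. Ccnb1 differed by 0.53 ± 0.54 (limma adjusted p = 0.82; exact permutation p = 0.23, smallest possible 0.029).

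The knockout TAC hearts were uneven. For 34 of the 36 genes the highest levels of the 17 libraries were those of KO TAC 1 and KO TAC 3, the exceptions being Cenpf and Kif23, and KO TAC 3 was the highest of its group for 33. Summed over the 34 genes other than Cenpa and Cenpf, levels were 76.5, 30.9, 111, 30.5 and 36.1 FPKM in KO TAC 1 to 5, against 12.3, 14.3 and 12.1 FPKM in the KO sham hearts. The same sum was 22.3, 9.48, 24.1, 23.8 and 19.9 FPKM in WT TAC 1 to 5, against 11.2, 12.4, 15.2 and 14.9 FPKM in the WT sham hearts. The mean of KO TAC 1 and 3 was 1.18 to 4.88 times that of KO TAC 2, 4 and 5, depending on the gene.

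The title of the study names p53, p21 and cyclin B1, so Trp53 and Cdkn1a were set beside the mitotic genes in the same hearts. Cdkn1a, encoding the CDK inhibitor p21, had 66.8, 26.1, 67.8, 59.3 and 49.2 FPKM in KO TAC hearts, against 6.83, 6.24 and 23 FPKM in KO sham hearts. Its levels did not overlap, and it rose in the same hearts as the cyclins, by 2.34 ± 0.42 (adjusted p = 0.000657). In wild-type hearts Cdkn1a had 23.3, 59.7, 24.2, 25.5 and 28.5 FPKM in WT TAC hearts, against 6.65, 12.2, 11 and 6.87 FPKM in WT sham hearts. There it rose by 1.75 ± 0.38 (adjusted p = 0.00795), and the interaction was 0.59 ± 0.57. Between KO TAC hearts (53.8 ± 17.2 FPKM) and WT TAC hearts (32.2 ± 15.5 FPKM, SD, n = 5 each) Cdkn1a differed by 0.76 ± 0.36 log2 units (adjusted p = 0.286). WT TAC 2, with the lowest mitotic sum of the TAC hearts, had the highest Cdkn1a of the WT TAC hearts, while KO TAC 1 and 3, with the highest sums, had the highest Cdkn1a of all. Trp53, encoding p53, averaged 12.0 ± 0.955 FPKM in KO TAC, 10.2 ± 2.12 in KO sham, 11.9 ± 1.26 in WT TAC and 10.4 ± 0.566 in WT sham hearts. Its changes with TAC were 0.25 ± 0.11 in knockouts and 0.19 ± 0.10 in wild types (adjusted p = 0.131 and 0.283), and p53 protein is not measured by these data.

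**Figure D5:**
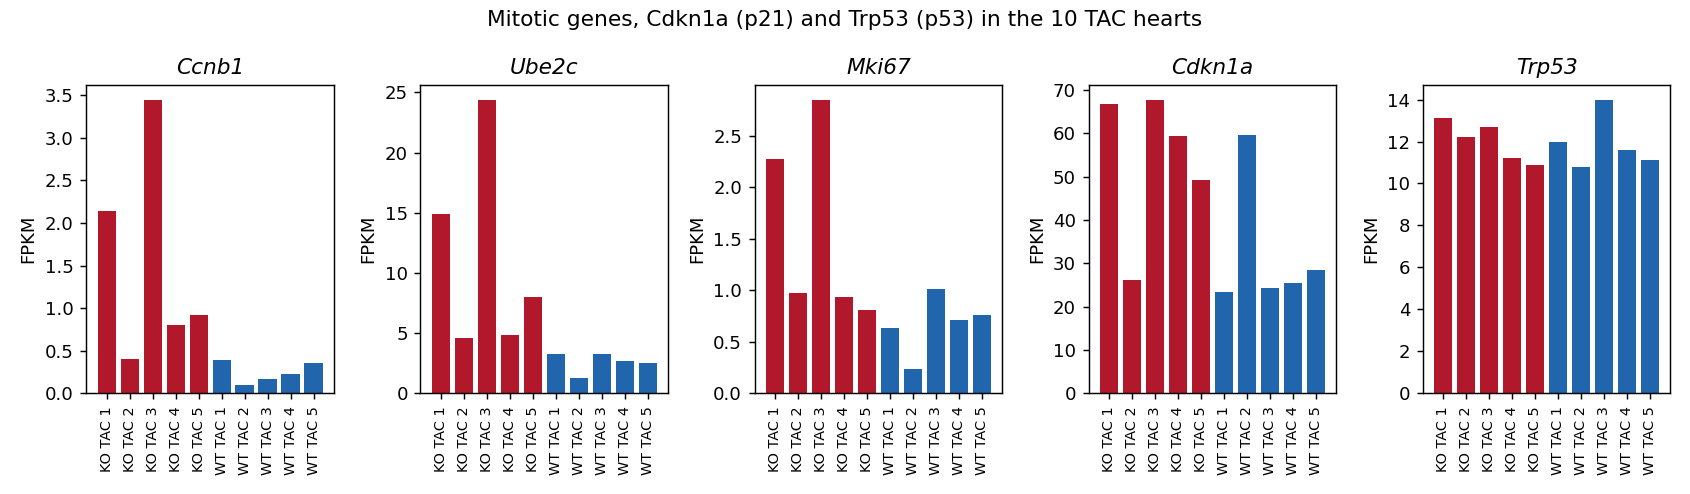
Levels (FPKM, vertical axes from 0) of Ccnb1, Ube2c, Mki67, Cdkn1a and Trp53 in the 5 KO TAC hearts (red) and the 5 WT TAC hearts (blue). Ccnb1, Ube2c and Mki67 peak in KO TAC 3 and KO TAC 1, Cdkn1a is high in WT TAC 2 as well, and Trp53 is nearly level between 10.8 and 14 FPKM.

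Genes around the mitotic programme were counted in the same way. Over all tested genes 11.2% rose and 9.30% fell in KO TAC against KO sham hearts, and 4.67% and 4.80% in WT TAC against WT sham hearts. In KO TAC against WT TAC hearts 2.28% were higher. At an unadjusted p under 0.05 (limma), 10.3% were higher in WT TAC against WT sham hearts. Of 40 other mitotic genes, 25 rose and 1 (Sgo2a, a protector of centromeric cohesin) fell in KO TAC against KO sham hearts, 0 passed in WT TAC against WT sham hearts, where 3 were higher at an unadjusted p under 0.05, and 9 were higher in KO TAC than in WT TAC hearts. The smallest p-values in knockouts were those of Ndc80, a kinetochore protein that grips microtubules (2.02 ± 0.31, adjusted p = 0.000186), Iqgap3 (2.59 ± 0.45), the kinase Pbk (1.92 ± 0.37) and the spindle protein Spag5 (1.83 ± 0.36). Of 23 regulators of mitotic transcription and of CDK1, 6 rose and 4 fell in KO TAC hearts, with a median of 0.25. Foxm1, the transcription factor of late cell-cycle genes, rose by 1.47 ± 0.38 in KO TAC hearts (adjusted p = 0.00953), at 1.56, 0.896, 1.86, 0.969 and 0.505 FPKM in KO TAC hearts, against 0.358, 0.251 and 0.352 FPKM in KO sham hearts, without overlap. E2f1, an activator of replication genes, rose by 1.5 ± 0.36 and Gtse1, a mitotic regulator of p53, by 1.61 ± 0.34, while Lin52, a MuvB subunit, fell by 0.53 ± 0.12 (SE, log2). In WT TAC hearts 2 of the 23 rose, among them Gtse1 (1.29 ± 0.31, adjusted p = 0.0141), and 2 fell, and Foxm1 had a change of 0.55 ± 0.35.

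Genes of the ubiquitin ligase and the inhibitors of CDKs came next. Over all tested genes 11.2% rose and 9.30% fell in KO TAC hearts, 4.67% and 4.80% in WT TAC hearts, and 2.28% were higher in KO TAC than WT TAC hearts. At an unadjusted p under 0.05 (limma), 10.3% were higher with TAC in wild types and 10.5% in KO TAC against WT TAC hearts. Counts of 1 or 2 genes in lists this short are not read as results about the list. Of 17 genes of the anaphase-promoting complex, 4 rose and 2 fell in KO TAC hearts, with a median of 0.05. The 17 are its subunits together with the activator Fzr1, the inhibitor Fbxo5 and the conjugating enzyme Ube2s. The changes were small, such as 0.33 ± 0.07 for Anapc7, 0.73 ± 0.16 for Anapc15, 0.59 ± 0.16 for Anapc10 and -0.38 ± 0.06 for Anapc13. In WT TAC hearts 1 rose and 2 fell, and between KO TAC and WT TAC hearts 0 of 17 passed, with 4 higher at an unadjusted p under 0.05 (limma). Of 14 CDK inhibitor and p53 genes, Cdkn1a and Cdkn2d (0.33 ± 0.11) rose and the inhibitor genes Cdkn1b (-0.29 ± 0.10) and Cdkn1c (-0.73 ± 0.15) and the stress gene Gadd45a (-0.67 ± 0.17) fell in KO TAC hearts. In WT TAC hearts Cdkn1a was the 1 of the 14 that passed. Of 26 genes of the G1/S transition and DNA replication, 11 rose and 0 fell in KO TAC hearts, with a median of 0.66, and 0 passed in WT TAC hearts, where 3 were higher at an unadjusted p under 0.05 (limma). Ccnd2, a D-type cyclin of G1, rose by 1.05 ± 0.13 (adjusted p = 3.33e-05), the replicative helicase gene Mcm6 by 0.69 ± 0.16, the chromatin assembly gene Chaf1b by 1.78 ± 0.43 and Ccne1, cyclin E1, by 0.92 ± 0.22. Against WT TAC hearts, 4 of the 26 (Ccnd2, Tk1, Mcm6 and Mcm2) were higher in KO TAC hearts.

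Markers of some cell types that a piece of heart can hold moved with TAC too. The shares over all tested genes were 11.2% higher and 9.30% lower in KO TAC hearts, and 4.67% and 4.80% in WT TAC hearts. At an unadjusted p under 0.05 (limma), 10.3% were higher in WT TAC hearts. A count of 1 in these short lists is not read as a result about the cell type. Of 7 markers of activated fibroblasts, 6 rose in KO TAC hearts, led by Cilp (4.59 ± 0.41) and Postn (4.40 ± 0.42), and 3 in WT TAC hearts, where Cilp rose by 3.87 ± 0.37 and Postn by 2.65 ± 0.39. The seventh, Acta2, went the other way in KO TAC hearts, at -0.57 ± 0.24 against KO sham (limma adjusted p = 0.114) and -0.68 ± 0.21 against WT TAC (limma adjusted p = 0.0787). In WT TAC against WT sham hearts Acta2 changed by 0.26 ± 0.22. The summed level of the 7 markers ranged over 160 to 392 FPKM in KO TAC, 66.1 to 87 in KO sham, 93.2 to 273 in WT TAC and 67.6 to 76.4 in WT sham hearts. Of 8 macrophage markers, 5 rose in KO TAC hearts and 0 passed in WT TAC hearts (1 higher at an unadjusted p under 0.05, limma), with sums of 338 to 456 FPKM in KO TAC, 244 to 266 in KO sham, 267 to 415 in WT TAC and 208 to 360 in WT sham hearts. Of 7 resident fibroblast markers, 4 rose in KO TAC and 1 in WT TAC hearts. Of 6 endothelial markers, 1 (Pecam1, 0.34 ± 0.09) rose in KO TAC hearts and 0 passed in WT TAC hearts, and the sums were 181 to 234 FPKM in KO TAC, 177 to 199 in KO sham, 171 to 217 in WT TAC and 179 to 199 in WT sham hearts. Cardiomyocyte markers fell for 7 of 10 genes and rose for 2 in KO TAC hearts, and fell for 5 and rose for 1 in WT TAC hearts.

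Few markers of blood and vessel wall cells passed, where 11.2% of all tested genes rose and 9.30% fell in KO TAC hearts and 4.80% fell in WT TAC hearts. Of 6 markers of monocytes and neutrophils 1 rose in KO TAC hearts, and none of 6 T cell, 4 B cell or 5 erythroid markers passed there, nor at an unadjusted p under 0.05 (limma). T cell markers summed to 0.595 to 2.39 FPKM in KO TAC, 0.767 to 1.12 in KO sham, 0.328 to 1.06 in WT TAC and 0.446 to 0.705 in WT sham hearts. Smooth muscle and pericyte markers fell for 1 of 6 genes in each genotype. No marker of any list was at 0 in a whole group. Within KO TAC hearts, macrophage markers summed to 413, 456, 338, 414 and 340 FPKM in KO TAC 1 to 5, activated fibroblast markers to 372, 160, 282, 392 and 226 FPKM, and endothelial markers to 200, 234, 217, 194 and 181 FPKM. KO TAC 2 was highest for macrophage and endothelial markers and KO TAC 4 for activated fibroblast markers, beside KO TAC 3 for the mitotic sum. The part of these cell types in the mitotic changes was not tested.

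Some of the 36 genes share transcribed bases with a neighbour, and whether the counting used strand is not given. In the GENCODE annotation 12 of the 36 shared exonic bases with another gene, 10 of them with a gene on the opposite strand. Ube2c overlaps Tnnc2, the fast skeletal troponin C gene, which stood at no more than 0.125 FPKM in KO TAC, 0.437 in KO sham, 0.26 in WT TAC and 0.35 in WT sham hearts, well under Ube2c in the same groups. Cdc20 overlaps Elovl1, a fatty acid elongase gene, at 12.3 to 15.7 FPKM in KO TAC, 9.68 to 11.5 in KO sham, 13.2 to 14.9 in WT TAC and 9.93 to 11.3 in WT sham hearts. Elovl1 was thus higher than Cdc20 in every group, and the part of its reads in the values of Cdc20 was not tested. Ccna2, Kif4, Kif20a, Nusap1, Prc1, Plk1, Nek2 and Cdca8 have partners on the opposite strand as well. Exosc9 (with Ccna2) stood at 8.05 to 10.5 FPKM in KO TAC and 7.08 to 9.21 FPKM in WT TAC hearts. Pdzd11 (with Kif4) had 17.3 to 21.2 and 14.5 to 17.3 FPKM there. For Cdc23 (with Kif20a) the ranges were 7.08 to 8.11 and 6.52 to 7.9 FPKM. Each of these partners was higher than its gene in every group, while Oip5 (with Nusap1) and Rccd1 (with Prc1) overlapped theirs in KO TAC hearts. The part of partner reads in these genes was not tested.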

How the data were processed

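RNA of mouse hearts was sequenced in 18 libraries. Per the labels' protocols, total RNA was extracted with a Qiagen kit and 1.3 ug went into each SMARTER mRNA-seq library. The deposited table holds 34714 genes in 18 columns, 1 for each library, and its values were taken as FPKM made by the authors, because they were never negative, were not whole and scaled with transcript length. RPKM could not be told from FPKM, and low values showed no common step, so depth is unknown. The submitters' processing notes name mm10, and no aligner or counter is named in the sources used here (not given).

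Groups came from the labels. limma 3.58.1 (R 4.3.3, trend and robust) was fitted to log2(FPKM + 0.1) of the 23775 genes above 0 in at least 1 of 17 libraries, with a mean for each group, Benjamini-Hochberg adjustment and a threshold of 0.05. The 10939 genes at 0 in all 17 were left out. KO sham replicate 2 entered an alternative only. The test recovered known changes in simulated data. These had independent noise with the same spread in every group, so they do not cover the wider spread of the mitotic genes in KO TAC hearts. Ccnb1 was also tested by exact 2-sided permutation. All 36 genes were named, with values in every library for the cyclins, CDK1, main kinases and markers, for members that fell and for those called between genotypes, plus up to 4 genes with the smallest p from each other list. The members and lists were chosen with earlier results of these data known. Alternatives covered pseudocounts of 1 and 0.01, filters on low values, a fold threshold, median-ratio scaling, models of the compared groups alone, a replicate block, a library-set term, all 18 libraries and each library left out. Coordinates came from GENCODE on GRCm38 and promoters from RefSeq on GRCm38.p6.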

Additional observations from a re-analysis of the deposited data

Results flagged for a closer look

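Of 108 sets of values (36 genes in the 3 groups of 4 or 5 modelled libraries), 2 had a library far from the others of its group, where chance gives about 1 in 20, or 5.4. Aurka stood at 0.367 FPKM in WT TAC replicate 2, below the 0.759 to 0.882 FPKM of the other WT TAC hearts. Cdca3 stood at 0.699 FPKM in WT sham replicate 3, above the 0.243 to 0.315 FPKM of the other WT sham hearts.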

How the results depend on the processing

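Of the 36 genes, 27 passed in KO TAC against KO sham hearts. The count was 26 with a log2 change of at least 1 as well, 27 at a pseudocount of 1, with median-ratio scaling or with a library-set term, 26 at a pseudocount of 0.01, 31 with a mean of at least 0.1 FPKM, 18 of the 19 genes with 1 FPKM in 3 libraries, 23 in the groups compared alone, 34 with all 18 libraries and 18 without KO TAC 1 and 3. It ranged over 21 to 31 when any 1 library was left out. Means were under 1 FPKM for 12 of the 36 genes in KO TAC hearts and for 32 or 33 in the other groups. The filter at 1 FPKM thus kept genes mostly through the KO TAC hearts, where they are high. Its 18 of 19 is therefore no added support, and 4637 of all 11937 genes it kept passed. In WT TAC against WT sham hearts 1 passed, and 2 (Ube2c added) in the groups compared alone or without KO TAC 1 and 3, with 1 to 2 when 1 library was left out. In KO TAC against WT TAC hearts 11 passed, but 17 with a mean of at least 0.1 FPKM, 0 in the groups compared alone, with a library-set term or without KO TAC 1 and 3, and 1 to 19 when 1 library was left out. The cause was not tested. None passed in KO sham against WT sham hearts or in the interaction under any setting run. With 1 library left out, genes without overlap numbered 1 to 16 for WT TAC against WT sham, 7 to 12 for KO TAC against WT TAC, 3 to 10 for KO sham against WT sham and 29 to 32 for KO TAC against KO sham. Leaving out a library can only raise such counts, for any gene. Of the shares over all genes, only that for WT TAC against WT sham without WT TAC replicate 2 was computed (7.41% higher). These ranges are therefore not read as results about the 36 genes. The Ccnb1 permutation p for KO TAC against KO sham was 0.016 with all 18 libraries, 0.12 on the FPKM scale and 0.029 to 0.095 with 1 library left out. With a library-set term, the Ccnb1 difference between KO sham and WT sham was -0.08, against 0.53 without it. Over all tested genes, calls between KO TAC and WT TAC hearts numbered 977, 396 in those groups alone and 300 with a library-set term, and calls of the interaction numbered 12, with 2 to 332 across settings. Sequencing depth is unknown, so what it limits in genes under 1 FPKM cannot be given.

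Replicate numbers do not pair the libraries: same-numbered libraries correlated at -0.24 to 0.17 in their deviations. With a replicate block the counts of genes that passed were 31 for KO TAC against KO sham, 1 for WT TAC against WT sham, 12 for KO TAC against WT TAC, 0 for KO sham against WT sham and 0 for the interaction.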
